A study of Mus musculus with 298 samples.

Results

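The immunoglobulin genes followed here were the 206 of 14605 rows of a blood transcript table whose gene type in the GENCODE annotation is an immunoglobulin constant (C), variable (V), joining (J) or diversity (D) gene. They comprised 12 C, 188 V and 6 J genes and 0 D genes. By chain, the heavy locus gave 7 C, 95 V and 2 J genes, the kappa locus 1 C, 90 V and 4 J genes, and the lambda locus 4 C and 3 V genes. Of the 206, 154 had a mean of at least 1 TPM (transcript abundance corrected for gene length and library total) and were tested, and 52 were not, among them Ighg2b, Ighg2c, Ighg3, Iglc4 and all J genes.

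RNA from blood was measured in 298 libraries, 1 per mouse and week, from 20 C57BL/6 mice of both sexes with the genotype tTA+/-, BCR-ABL+/-. In these SCLtTA/BCR-ABL mice, 6 to 8 weeks old at the start, tetracycline in the drinking water (0.5 g/L) holds a BCR-ABL transgene off in blood stem and progenitor cells, and its withdrawal starts a disease like chronic myeloid leukaemia. CML mice (6 mice, 94 libraries) stayed off tetracycline. TKI mice (7 mice, 99 libraries) were off tetracycline and received nilotinib, a BCR-ABL kinase inhibitor, at 50 mg/kg daily by gavage for the 4 weeks after week 6. TOTO mice (4 mice, 48 libraries) were off tetracycline to week 6 and on it again for the next 12 weeks. Control mice (3 mice, 57 libraries) carried the same transgenes and stayed on tetracycline, so no group lacked them. CML, TKI and TOTO mice up to week 6 are called Tet-off mice.

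An antibody is built from paired heavy chains and light chains, and the light chain is either kappa or lambda. A B cell joins 1 V gene to J (and, in the heavy chain, D) segments, and places the product before a constant gene. Naive B cells make IgM and IgD from Ighm and Ighd by alternative splicing. After activation a cell can switch to a downstream constant gene, such as Ighg1 for IgG1 or Igha for IgA, and plasma cells, which secrete antibody, hold far more immunoglobulin mRNA per cell than resting B cells.

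V genes share a promoter element, the octamer bound by the Oct factors of B cells, and the windows around it are shown for the most abundant V genes because it is the sequence that these otherwise separate genes have in common. The octamer was searched as ATTTGCAT and its reverse complement ATGCAAAT, from 250 bases before to 50 bases after the annotated gene start in GRCm39. It was found for 146 of 188 V members (77.7%), against 251 of 14330 genes of the table that are not members (1.75%). It was present in 78 of 95 heavy (82.1%), 65 of 90 kappa (72.2%) and 3 of 3 lambda V genes. With Ighv1-64, Igkv4-51 and Igkv4-58 holding more than 1 match each, all 79 heavy matches read ATGCAAAT in the direction of transcription, whereas 65 of 67 kappa matches and 3 of 3 lambda matches read ATTTGCAT. Each line below gives 70 bases on the gene's own strand, 5′ to 3′, from the GRCm39 genome, with the octamer or its nearest match in capitals. In Ighv1-26 and Igkv1-117, the most abundant heavy and kappa V genes, the nearest match had 1 mismatch.
Ighv1-26, chr12:114752484-114752553, minus strand: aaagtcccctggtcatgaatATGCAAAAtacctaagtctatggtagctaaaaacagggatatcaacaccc
Ighv9-3, chr12:114104803-114104872, minus strand: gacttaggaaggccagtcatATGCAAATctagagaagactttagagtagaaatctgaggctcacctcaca
Igkv1-117, chr6:68097936-68098005, plus strand: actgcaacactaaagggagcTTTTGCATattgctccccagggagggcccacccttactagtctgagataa
Igkv1-135, chr6:67586603-67586672, plus strand: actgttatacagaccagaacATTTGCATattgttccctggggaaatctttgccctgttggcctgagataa
Iglv1, chr16:18904266-18904335, minus strand: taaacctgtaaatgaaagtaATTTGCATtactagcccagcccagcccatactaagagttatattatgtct
Iglv3, chr16:19060477-19060546, minus strand: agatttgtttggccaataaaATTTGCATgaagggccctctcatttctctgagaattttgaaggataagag
Iglv2, chr16:19079650-19079719, minus strand: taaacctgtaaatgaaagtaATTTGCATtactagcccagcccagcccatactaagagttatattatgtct
The 70 bases of Iglv1 and Iglv2 are the same. As for mean level, kappa V genes with the octamer had a median of 3.28 TPM and those without it 4.57 TPM, and heavy V genes 2.15 TPM with it and 1.58 TPM without it. An octamer match describes the letters in this window and is not a measured binding site.

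How far the lambda constant genes can be told apart by short reads is shown by 60 bases of their coding exons, given on the gene's strand, with capitals where a base differs from Iglc2.
Iglc1, chr16:18880553-18880612, minus strand: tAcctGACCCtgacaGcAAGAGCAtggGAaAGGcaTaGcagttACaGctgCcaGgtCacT
Iglc2, chr16:19017337-19017396, minus strand: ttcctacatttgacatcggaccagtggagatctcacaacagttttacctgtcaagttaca
Iglc3, chr16:18884166-18884225, minus strand: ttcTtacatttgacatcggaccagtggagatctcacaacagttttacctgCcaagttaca
Within the stretch Iglc1 differs from Iglc2 at 28 bases and Iglc3 at 2. Over the whole coding exon, Iglc2 and Iglc3 were 96.5% identical (11 mismatches in 314 aligned bases), and Iglc1 was 73.2% identical to Iglc2 and 73.9% to Iglc3. The separate values of Iglc2 and Iglc3, and of closely related V genes, are therefore uncertain, while Iglc1 stands apart from Iglc2 and Iglc3. Iglc4 was not compared.

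The immunoglobulin genes together held 0.140% of the TPM of a library at the median, from 0.00453% to 1.09%. Averaged over all 298 libraries, Igkc, the kappa constant gene, had 472 TPM. Ighm (IgM) had 306 TPM and Ighd (IgD) 106 TPM. The lambda constant genes had 51.4 TPM (Iglc3), 49.7 TPM (Iglc2), 35.6 TPM (Iglc1) and 0.262 TPM (Iglc4). The switched heavy genes were far lower, with 6.45 TPM for Igha (IgA), 2.31 TPM for Ighg1, 0.969 TPM for Ighg2b (IgG2b), 0.581 TPM for Ighg3 (IgG3) and 0.390 TPM for Ighg2c (IgG2c, the form that C57BL/6 mice carry in place of IgG2a). The 5 highest kappa V genes were Igkv1-117 (26.5 TPM), Igkv1-135 (22.6 TPM), Igkv10-96 (21.7 TPM), Igkv1-110 (19.9 TPM) and Igkv6-15 (19.8 TPM). The 5 highest heavy V genes were Ighv1-26 (18.8 TPM), Ighv9-3 (11.7 TPM), Ighv1-82 (11.1 TPM), Ighv3-6 (10.4 TPM) and Ighv8-8 (9.09 TPM). The lambda V genes were Iglv1 (26.9 TPM), Iglv3 (9.59 TPM) and Iglv2 (7.42 TPM). J genes were above 0 in 5 to 31 libraries each.

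Some libraries and mice stood apart. The labels name mononuclear cells as the tissue but whole blood as the source of RNA, and haemoglobin took a median of 42.6% of TPM (0.331% to 74.8%). All 15 genes of a list of B cell markers were measured. In CML mouse 487 the BCR-ABL transcript was listed at 0 in 16 of 19 libraries, against 1 to 4 libraries at 0 in each of the other CML mice. Its highest value was 0.409 TPM, beside 0.716, 0 and 0.715 TPM in control mice 488, 489 and 490. CML mouse 487 was thus not above the control mice in this transcript, and it was kept in the CML and Tet-off groups. Control mouse 490 at week 17 gave a library with Iglc3 at 265 TPM with Iglc2 and the B cell surface gene Ms4a1 at 0, and 1 of 95 heavy V genes above 0. No tested change uses that library, but it counts in the mean TPM filter and in choosing the genes used for rescaling. The labels name 3 batches (2021_E, 2022_A and 2022_B), constant within a mouse. All 4 TOTO mice are in 2022_A, with 1 of the 3 control mice.

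In Tet-off mice, whether B cell transcripts changed as the transgene came on was asked by comparing week 6 with week 0 in each mouse. Nearly all immunoglobulin genes tested were lower at week 6, and the exception was Ighg1, which was higher. Igkc had a median of 454 TPM (109 to 664 TPM) at week 6 and 830 TPM (418 to 3125 TPM) at week 0 in CML mice. It had 307 TPM (233 to 378 TPM) at week 6 and 334 TPM (236 to 580 TPM) at week 0 in TKI mice. In TOTO mice it had 94.0, 163, 174 and 320 TPM at week 6, against 2096, 2431, 1682 and 529 TPM at week 0. The TKI groups overlap widely, and the fall was largest in TOTO mice, where the values at the 2 weeks do not overlap. Of 154 genes tested with limma, 146 fell and 1 rose at a Benjamini-Hochberg adjusted p under 0.05. Over all 10519 genes tested, 12.2% fell and 3.86% rose (16% called), and the median gene changed by -0.34 on the log2(TPM + 1) scale. On rescaled values, in which each library is divided by a median-ratio size factor, the median gene changed by -0.02, and 151 members fell and 1 rose, beside 38.8% and 34.6% of all genes (73.4% called).

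**Figure D1:**
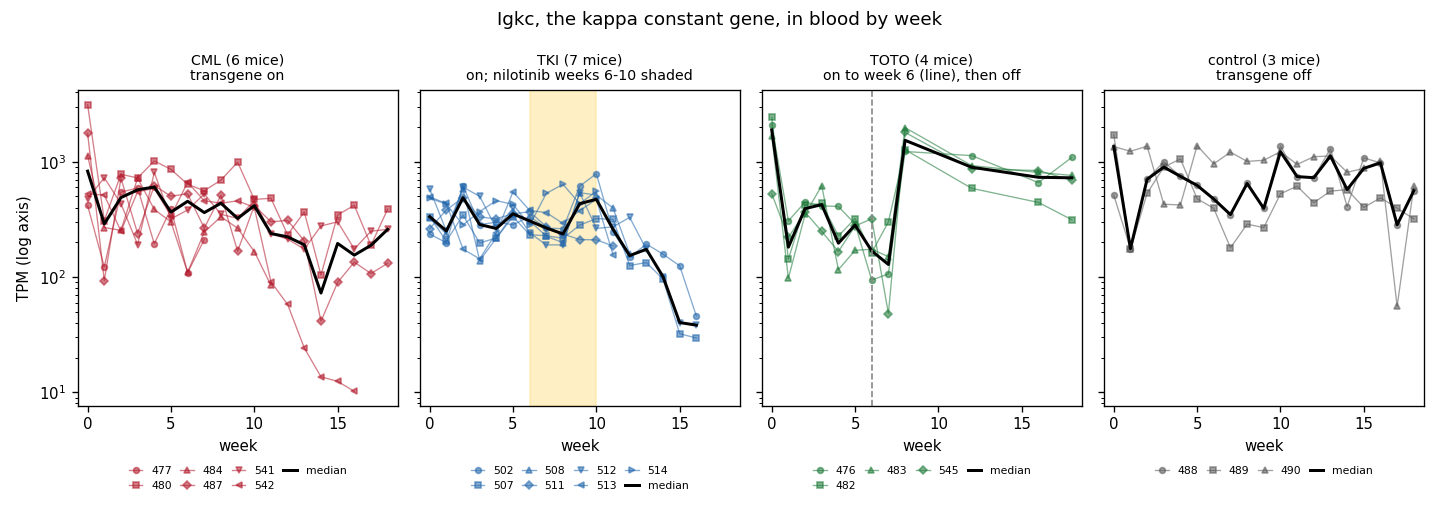
Igkc, the kappa constant gene, in TPM (log axis) by week in 4 panels for CML, TKI, TOTO and control mice, with a thin line per mouse and a black line for the median. Week 0 stood above week 1 in all 4 TOTO mice, TOTO mice reached 1228 to 1980 TPM at week 8, and the 3 TKI mice with a week 16 library ended at 29.6 to 45.8 TPM.

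The falls by class were ordered as heavy V, kappa V and lambda V, with median log2 changes of -1.02 (66 of 71 fell), -1.25 (71 of 72) and -1.92 (3 of 3). Median levels of the V genes had the same order (with and without the octamer, heavy 2.15 and 1.58 TPM, kappa 3.28 and 4.57 TPM, lambda 9.59 TPM, all with it). Since 1 TPM is added, low genes have understated changes, so class and level cannot be told apart here. Iglc1 fell by 2.02 (SE 0.41, limma adjusted p = 0.0027), Iglv3 fell by 1.98 and Iglc2 by 1.97, with Iglc1 and Iglc2 lower in 17 of 17 mice. Igkc fell by 1.39 (SE 0.36, limma adjusted p = 0.013, lower in 14 of 17 mice), Ighm by 1.47 and Ighd by 1.24. Igha changed by -0.61 (limma adjusted p = 0.26) and did not pass. The 15 B cell markers moved with them, all 15 lower, with a median change of -1.45. Their summed level was 105 to 848 TPM at week 6 and 269 to 3314 TPM at week 0. Other blood cell lists moved as well: 5 of 9 T cell and 3 of 5 NK cell markers fell (9 of 9 and 5 of 5 on rescaled values), and 4 of 5 platelet genes rose. Their part in these results was not tested. In bulk blood, fewer B cells and less immunoglobulin RNA per B cell cannot be told apart.

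The fall depended on the week 0 libraries. With week 1 as the start, 0 members fell (2.55% of all genes did) and 1, Ighg1, rose. Igkc then changed by 0.10, and 89 members had a positive and 65 a negative change. With week 1 and rescaling, 37 members fell and 2 rose (62% of all genes were called). Week 1 levels were far under week 0 levels in TOTO mice (182 TPM against 1889 TPM, medians) and in control mice (177 TPM against 1355 TPM). With a batch term 2 members passed, both lower (0.599% of all genes were called). By batch, Tet-off mice had mean log2 changes of Igkc of -1.31 in the 2 mice of 2021_E, -1.90 in the 10 of 2022_A and -0.42 in the 5 of 2022_B. Control mice were lower too, with Igkc at 475, 394 and 960 TPM at week 6, against 513, 1724 and 1355 TPM at week 0, and a mean change of -0.91. When the control change was taken off, limma called 0 members (0% of all genes). At an unadjusted p under 0.05 there were 2 members higher and 0 lower, beside 2.19% and 0.019% of all genes. On the rescaled values, 50 members fell more in Tet-off mice than in control mice (7.54% of all genes did, 14.1% called), and Igkc differed by -1.08 (limma adjusted p = 0.042).

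Among the tested members Ighg1 alone had a positive mean change over the 17 Tet-off mice. In TKI mice it had 12.4, 18.5, 11.0, 3.35, 7.08, 8.64 and 6.56 TPM at week 6, against 0.10, 0.0441, 0.322, 0.0628, 0.0886, 0.0251 and 0.077 TPM at week 0 (mice 502, 507, 508, 511, 512, 513 and 514). Every week 6 value stood above every week 0 value. TOTO mice had 2.25, 2.47, 9.42 and 9.31 TPM at week 6, against 1.63, 4.78, 5.14 and 0.947 TPM at week 0, and these overlap. CML mice had a median of 0.495 TPM (0.0571 to 5.66 TPM) at week 6 and 0.556 TPM (0.0324 to 2.59 TPM) at week 0, and these overlap as well. Over all 17 Tet-off mice Ighg1 rose by 1.62 on the log2(TPM + 1) scale (SE 0.36, limma adjusted p = 0.0056), and it was higher in 14 of 17 mice. The mean change was 3.14 in TKI mice (7 of 7 higher), 0.46 in CML mice (4 of 6) and 0.68 in TOTO mice (3 of 4). With week 1 as the start the rise was 2.20. With a batch term it was 1.13 and missed the threshold (adjusted p = 0.11, limma). The batch means in Tet-off mice were -0.72 in 2021_E, 2.07 in 2022_A and 1.65 in 2022_B.

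**Figure D2:**
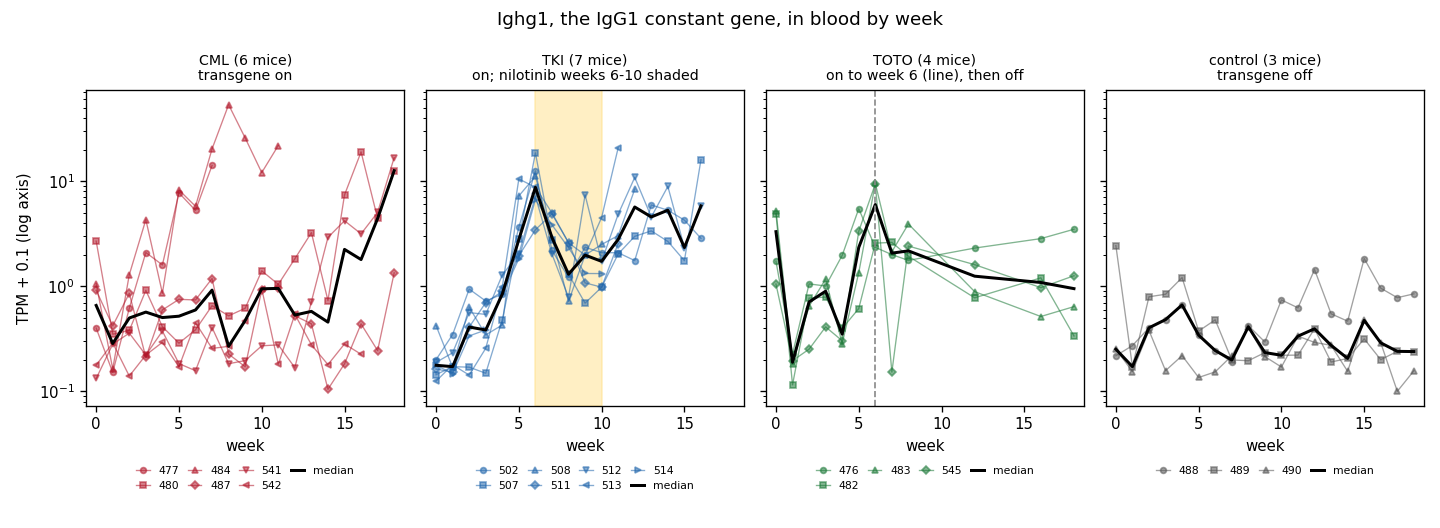
Ighg1, the IgG1 constant gene, as TPM + 0.1 on a log axis by week in 4 panels for CML, TKI, TOTO and control mice, with a thin line per mouse and a black median. TKI mice peaked at week 6 with a median of 8.64 TPM, stood at 1.2 TPM at week 8 on nilotinib and at 5.72 TPM at week 16, and no control library passed 2.33 TPM.

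Libraries with high Ighg1 were more frequent in the 3 cohorts that came off tetracycline, as a count without a test. Libraries of the same mouse are repeated measures. The counts take in every week, also week 0 and, in TOTO mice, the weeks back on tetracycline. At least 5 TPM was reached in 14 of 94 CML libraries, 17 of 99 TKI libraries, 4 of 48 TOTO libraries (1 of them at week 0) and 0 of 57 control libraries. CML mouse 484 reached 53.3 TPM at week 8, mouse 480 reached 18.9 TPM at week 16, mouse 541 reached 16.7 TPM at week 18 and mouse 477 reached 14.0 TPM at week 7. CML mice 487 and 542 never passed 1.24 and 0.846 TPM, and TKI mouse 511 and TOTO mouse 482 never passed 4.77 and 4.78 TPM. The control mice had 0.144, 0.379 and 0.0532 TPM at week 6. Relative to control mice the induction change of Ighg1 was 2.07 (SE 0.93, limma adjusted p = 1), which did not pass with 3 control mice. Igha differed from control by as much, 2.16 (SE 1.03, limma adjusted p = 1).

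Of the other switched heavy genes, Ighg2b, Ighg2c and Ighg3 had medians of 0.750, 0.212 and 0.474 TPM over all libraries, and Igha 3.43 TPM. Ighg2b in TKI mice had a median of 1.21 TPM (0.685 to 2.94 TPM) at week 6 and 0.174 TPM (0.0565 to 0.370 TPM) at week 0, which do not overlap. Ighg2c had 0.739 TPM (0.0837 to 2.88 TPM) at week 6 and 0.0657 TPM (0.0374 to 0.127 TPM) at week 0, and Ighg3 had 0.483 TPM (0.397 to 0.855 TPM) at week 6 and 0.179 TPM (0.0870 to 0.401 TPM) at week 0, and both of these overlap. Igha at week 0 varied most. It reached 112 TPM in CML mouse 487, 81.3 and 70.1 TPM in TOTO mice 482 and 483, and 61.3 TPM in control mouse 489. TKI mice had 0.491 to 3.26 TPM of Igha at week 0 and 3.29 to 5.51 TPM at week 6, which do not overlap. As a share of all heavy constant TPM, the switched genes together took a median of 6.05% in TKI mice, 8.52% in TOTO mice, 1.92% in CML mice and 0.845% in control mice at week 6. Within libraries, the log2 ratio of Ighg2b to Ighm rose by 1.58 ± 1.26 (SD, n = 17) in Tet-off mice, higher in 17 of 17 (exact sign-flip test, p = 1.53e-05, the smallest it can give, adjusted p = 0.00048 over 63 ratio tests). With week 1 as the start it was 0.63 and did not pass. Relative to control mice it was 1.34 and did not pass (exact permutation p = 0.0746, adjusted p = 0.134). Batch means were 0.515 in 2021_E, 2.18 in 2022_A and 0.816 in 2022_B. With Ighg2b near the pseudocount of 1 TPM, that ratio follows Ighm as well as Ighg2b. With a pseudocount of 0.1 TPM it rose by 2.03. The log2 ratio of Igha to Ighm rose by 0.86 ± 1.29 (SD, n = 17) in Tet-off mice, higher in 14 of 17. It did not pass (exact sign-flip test, adjusted p = 0.076). In control mice it changed by -1.79. The difference, 2.65, did not pass (exact permutation p = 0.0079, adjusted p = 0.070).

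Genes of plasma cells and of neutrophils were set beside Ighg1. Of 13 plasma cell genes 6 were tested, and at induction 0 rose and 2 fell. On rescaled values 2 rose and 4 fell, and with week 1 as the start 2 rose and 0 fell. Jchain, which joins IgM and IgA into multimers, had a median of 1.11 TPM (0.694 to 1.59 TPM) at week 6 and 0.264 TPM (0.101 to 0.381 TPM) at week 0 in TKI mice. The other cohorts differed from TKI mice in the summed plasma cell genes. That sum had a mean log2 change of 1.05 in TKI mice (7 of 7 higher). It was -0.91 in CML mice (3 of 6 lower), -1.54 in TOTO mice (3 of 4 lower) and -1.04 in control mice (3 of 3 lower). Xbp1, a transcription factor of secretory cells that other blood cells also express, changed by 0.70 (limma adjusted p = 0.15). Of 9 neutrophil genes 8 rose, and Ngp, a granule protein gene, rose by 5.64 (limma adjusted p = 4.3e-05). The part of these cells in the level of Ighg1 was not tested.

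Kappa and lambda did not move equally. At week 0 lambda genes took a median of 25.2% of light chain constant TPM in CML mice, 24.5% in TKI mice, 25.3% in TOTO mice and 24.2% in control mice. At week 6 the shares were 17.6% (14.1% to 24.9%) in CML mice, 18.9% (14.4% to 20.8%) in TKI mice, 20.2% (13.6% to 21.7%) in TOTO mice and 22.5% (22.4% to 25.2%) in control mice. All 11 TKI and TOTO mice stood under the lowest control mouse at week 6, and CML mouse 487 stood among the controls at 24.9%. The log2 ratio of Igkc to Iglc2 rose by 0.58 ± 0.32 (SD, n = 17) and was higher in 17 of 17 Tet-off mice (exact sign-flip test, p = 1.53e-05, the smallest it can give, adjusted p = 0.00048). It was 0.43 with week 1 as the start (adjusted p = 0.0087, exact sign-flip test). Batch means were 0.36 in 2021_E, 0.60 in 2022_A and 0.62 in 2022_B.

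In the control mice the same ratio changed by -0.02 ± 0.17 (SD, n = 3). The difference, 0.60, had an exact permutation p of 0.0061, or 0.064 after adjustment over the 63 ratio tests, and did not pass. In TKI mice the V genes gave the same direction: lambda V genes took a median of 6.72% of light chain V TPM at week 6 and 9.61% at week 0. Over all libraries the median lambda share was 8.25% by V genes and 21.5% by constant genes, so neither gives the lambda fraction of light chains. Within the heavy locus, the log2 ratio of Ighd to Ighm rose by 0.23 ± 0.24 (SD, n = 17; 16 of 17 higher, exact sign-flip test, adjusted p = 0.031). The ratio of Igkc to Ighm changed by 0.08 ± 0.19 (SD, n = 17) and did not pass, and that of Igkc to the B cell receptor gene Cd79a changed by -0.10 ± 0.14 (SD, n = 17; exact sign-flip test, adjusted p = 0.049). Relative to control mice, Ighd to Ighm (0.33) and Igkc to Cd79a (-0.19) did not pass (exact permutation test, adjusted p = 0.086 and 0.093). Igkc, Ighm and Cd79a fell by 1.39, 1.47 and 1.29.

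**Figure D3:**
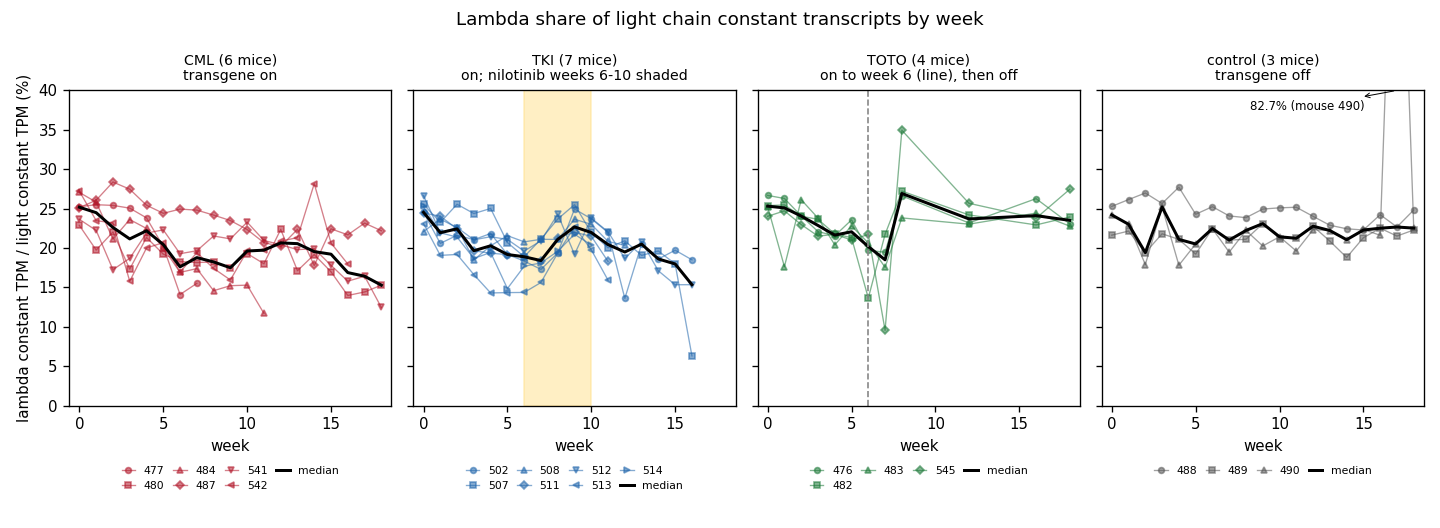
Lambda constant TPM as a percentage of all light chain constant TPM by week in 4 panels for CML, TKI, TOTO and control mice, with a thin line per mouse and a black median. The axis ends at 40%, above which lies 1 library of control mouse 490 at 82.7%. Shares near 25% at week 0 were 17.6% to 20.2% (medians) in the Tet-off cohorts and 22.5% in control mice at week 6, and TOTO mice stood at 26.9% at week 8.

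In CML mice the last library of each mouse was set against its week 0, with the change of control mice at week 18 taken off. Igkc had 211, 388, 84.6, 132, 259 and 10.2 TPM at the last week in CML mice 477, 480, 484, 487, 541 and 542, against 418, 3125, 1131, 1769, 477 and 528 TPM at week 0. It was lower in 6 of 6 CML mice. Control mice 488, 489 and 490 had 560, 319 and 612 TPM at week 18, against 513, 1724 and 1355 TPM at week 0, so 2 of 3 were lower. Relative to control the change of Igkc was -1.83 (SE 1.07, limma adjusted p = 1). limma called 0 of 154 members (0% of all genes), with 3 lower and 1 higher at an unadjusted p under 0.05, beside 0.181% and 1.04% of all genes. Without the TKI mice in the fit and on rescaled values, a setting chosen after seeing the data, 60 members were lower (2.44% of all genes were, 4.02% called). Without rescaling that fit called 0 members and 0.00951% of all genes, all higher. Ighg1 was higher in 6 of 6 CML mice, with 11.0 TPM at the last week and 0.794 TPM at week 0 (means), and a change of 2.58 relative to control (SE 0.96, limma adjusted p = 1). At week 18 the switched share was 6.71% to 11.7% in 3 CML mice and 1.18% to 1.61% in 3 control mice, and the lambda share was 12.5% to 22.2% in CML mice and 22.3% to 24.8% in control mice.

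**Figure D4:**
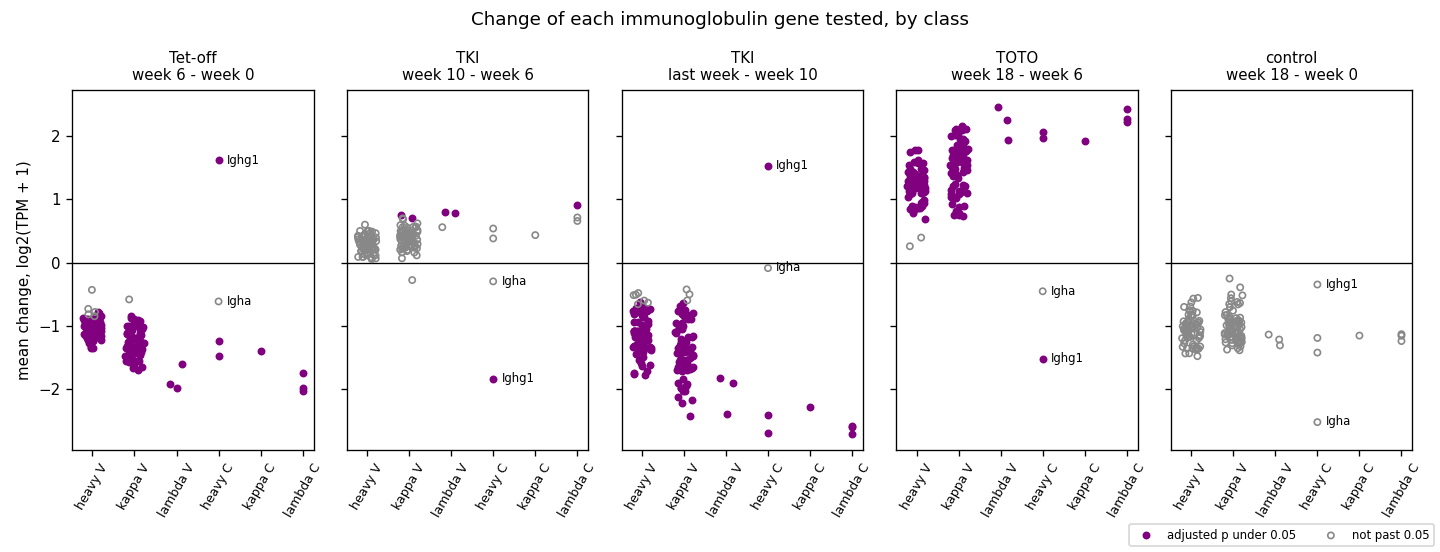
Mean log2(TPM + 1) change of each tested immunoglobulin gene by class (heavy, kappa and lambda V and C genes), in 5 panels for week 6 minus 0 in Tet-off mice, week 10 minus 6 and last week minus week 10 in TKI mice, week 18 minus 6 in TOTO mice and week 18 minus 0 in control mice. Filled points have a limma adjusted p under 0.05; Ighg1 lies opposite to Ighm, Ighd, Igkc and the lambda constant genes in the first 4 panels.

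Nilotinib was examined by week 10 minus week 6 in TKI mice. Ighg1 fell, and 5 of the 79 light chain genes tested rose. Ighg1 had 1.99, 0.878, 2.40, 0.880, 1.63, 4.41 and 1.22 TPM at week 10, against 12.4, 18.5, 11.0, 3.35, 7.08, 8.64 and 6.56 TPM at week 6, in the mouse order given above. It was lower in 7 of 7 mice, and fell by 1.83 (SE 0.42, limma adjusted p = 0.037). At week 8 its median was already 1.2 TPM (0.617 to 2.51 TPM). The members called were 5 higher and 1 lower, beside 2.18% and 3.18% of all genes (5.36% called). The share of members that rose, 3.25%, is near that of all genes. The 5 that rose were Iglc1 by 0.90, Iglv3 and Iglv1 by 0.79, Igkv4-72 by 0.75 and Igkv1-135 by 0.71. Of the 154 tested, 151 had a positive change, with a median of 0.35 beside 0.07 for all genes. Igkc had 788, 322, 514, 210, 264, 473 and 554 TPM at week 10, against 335, 233, 307, 368, 242, 378 and 282 TPM at week 6, higher in 6 of 7 mice, and did not pass (0.44, limma adjusted p = 0.23). On rescaled values 60 members rose (20.1% of all genes) and 1 fell.

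Control mice were also higher over these weeks, with a mean Igkc change of 0.77 (3 of 3 higher), and 0 members passed once their change was taken off (0% of all genes), a setting added after seeing the data. Ighg1 then changed by -1.91 (limma adjusted p = 0.41), and the control mice's own change was 0.08. Against CML mice, whose Ighg1 was higher at week 10 in 5 of 5, Ighg1 differed by -2.34 (SE 0.66, limma adjusted p = 0.084). limma called 0 members in that comparison (0.038% of all genes), with 33 higher and 1 lower at an unadjusted p under 0.05, beside 1.71% and 11.3% of all genes. On rescaled values 65 were higher (9.62% of all genes) and 1, Ighg1, was lower (limma adjusted p = 0.019). The call of Ighg1 within TKI mice rested on few mice: without any 1 of TKI mice 502, 507, 508, 512 and 514, CML mice 487 and 541 or control mouse 489, its adjusted p ran from 0.051 to 0.13 (limma). Without the mouse as a block it was 0.061, and 0 members passed (0% of all genes).

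The lambda share of light chain constant TPM was 23.7%, 22%, 23%, 21.5%, 23.8%, 19.8% and 20.4% at week 10, against 18.4%, 18.9%, 20.8%, 18.9%, 19.6%, 14.4% and 17.7% at week 6. It was higher in 7 of 7 TKI mice. The ratio of Igkc to Iglc2 changed by -0.22 ± 0.13 (SD, n = 7; exact sign-flip p = 0.016, the smallest 7 mice can give, adjusted p = 0.076). Of the neutrophil genes 9 of 9 fell, Ngp by 2.12, and Xbp1 fell by 0.95, beside 2 of 15 B cell markers and 7 of 9 T cell markers that rose. Igha changed by -0.29 and was lower in 7 of 7 mice (limma adjusted p = 0.47). The part of these other cells in the changes of Ighg1 and the light chain genes was not tested.

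After nilotinib ended, 6 TKI mice had later libraries, the last at week 16 in mice 502, 507 and 512, at week 12 in mouse 508 and at week 11 in mice 511 and 513. Immunoglobulin transcripts fell steeply and Ighg1 rose again. Igkc had 45.8, 29.6 and 38.3 TPM at week 16 in mice 502, 507 and 512, against 788, 322 and 264 TPM at week 10. Mice 508, 511 and 513 had 159, 186 and 157 TPM, against 514, 210 and 473 TPM. limma called 143 members lower and 1 higher (18.5% and 14.5% of all genes, 32.9% called). Iglc2 fell by 2.70, Ighd by 2.69, Iglc1 by 2.60, Ighm by 2.40 and Igkc by 2.28 (SE 0.53, limma adjusted p = 0.0012). Ighg1 rose by 1.53 (SE 0.27, limma adjusted p = 6.3e-05, 6 of 6 higher). Igha did not pass. Relative to Ighm, the other switched genes followed as ratios rose too. The log2 ratios of Igha and Ighg2b to Ighm rose by 2.31 and 2.10, each higher in 6 of 6 mice. Neither passed (exact sign-flip test, adjusted p = 0.086 for both), and both ratios follow the fall of Ighm as well. Of the B cell markers 15 of 15 fell and of the neutrophil genes 9 of 9 rose, Ngp by 3.74. Markers of T cells (8 of 9), NK cells (5 of 5) and platelets (5 of 5) fell as well, and their part was not tested.

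At week 16 Ighg1 stood at 2.76, 15.9 and 5.72 TPM in mice 502, 507 and 512, which was 5.27%, 51.0% and 16.0% of their heavy constant TPM. Their lambda share was 18.5%, 6.32% and 15.3%. Control mice at week 16 had 0.10 to 0.858 TPM of Ighg1 and a lambda share of 21.6% to 24.2%. When the change of control mice between weeks 10 and 16 was taken off, added after seeing the data, 0 members passed (0.608% of all genes did). Igkc in the control mice changed by -0.29 over those weeks. Within batches Igkc in TKI mice changed by -2.98 in 2022_A (4 mice) and by -0.88 in 2022_B (2 mice). The 2022_B mice ended at week 11 and the 2022_A mice at week 12 or 16, so batch and time after nilotinib cannot be told apart.

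In TOTO mice, shutting the transgene off again was followed by a rise of nearly all members at week 18 over week 6. Igkc had 1090, 314, 762 and 690 TPM at week 18, against 94.0, 163, 174 and 320 TPM at week 6 (mice 476, 482, 483 and 545). It was higher in 4 of 4, and the weeks overlap only in that mouse 482 at week 18 stood just under mouse 545 at week 6. limma called 150 members higher and 1 lower, beside 18.2% and 5.2% of all genes (23.4% called), whose median rose by 0.44. The largest rises were those of Iglv1 by 2.46, Iglc2 by 2.43 and Iglc1 by 2.27, and Igkc rose by 1.92 (SE 0.35, limma adjusted p = 9.6e-05). By class, the median change was 1.22 for heavy V, 1.56 for kappa V and 2.25 for lambda V genes. As at induction, class and level cannot be told apart in this order. Ighg1 fell by 1.52 (SE 0.37, limma adjusted p = 0.0028), with 3.38, 0.236, 0.540 and 1.16 TPM at week 18, against 2.25, 2.47, 9.42 and 9.31 TPM at week 6, lower in 3 of 4 mice. The log2 ratios of Igha and Ighg2b to Ighm changed by -2.51 and -1.66, each lower in 4 of 4 mice. The exact sign-flip p was 0.125 for both, the smallest 4 mice can give. T cell markers rose too (7 of 9), as did 2 of 5 NK cell markers, and 4 of 5 platelet genes fell. Their part was not tested.

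Relative to control mice, whose Igkc changed by -0.24, 99 members rose more in TOTO mice and 0 less (3.93% and 3.3% of all genes, 7.23% called). Igkc differed by 2.16 (SE 0.54, limma adjusted p = 0.0086) and Iglc2 by 2.77, Iglv1 by 2.53 and Iglc1 by 2.47. This count depended on single mice and on the week. It was 8 without control mouse 490 (2.34% of all genes called), 48 without control mouse 489 (4.44%) and 53 without CML mouse 480 (4.81%), which shares the fit. It was 0 with week 12 as the end (0.00951% of all genes), 2 with no filter on low values (0.698%), and 0 without the mouse as a block (0.0285%). With a batch term, 0 members passed against control (1.16% of all genes) and 1 within TOTO mice (1.01%). In batch 2022_A the mean Igkc change was 1.92 in 4 TOTO mice and 0.24 in 1 control mouse, and outside that batch there are no TOTO mice, so beyond that 1 control mouse, batch and shut-off cannot be told apart. The 15 B cell markers all rose relative to control and 9 of 9 neutrophil genes and 4 of 5 platelet genes fell, while 0 of 9 T cell markers passed.

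Week 8, chosen after the weekly values were seen, was the highest point after shut-off. Igkc had 1228, 1273, 1980 and 1798 TPM at week 8 in mice 476, 482, 483 and 545, against 107, 301, 150 and 48.2 TPM at week 7. Control mice had 648, 287 and 1007 TPM at week 8, below all 4 TOTO mice. Ighm had 1072, 987, 1737 and 1718 TPM and Ighd 194, 221, 263 and 260 TPM, against 67.5, 203, 98.5 and 25.5 TPM of Ighm and 25.7, 72.8, 32.5 and 4.52 TPM of Ighd at week 7. Ighm thus grew more than Ighd, and the log2 ratio of Ighd to Ighm differed by -1.07 between weeks 8 and 6, lower in the 4 mice than at week 6. With 4 mice the exact test cannot go below p = 0.125. Iglc1, which differs widely from Iglc2 and Iglc3 in sequence, took 37.6%, 31.6%, 36.7% and 41.8% of lambda constant TPM at week 8, against 21.2% to 24.1% in control mice. Vpreb3, a gene expressed in B cell precursors and immature B cells, had 44.7, 28.3, 70.4 and 78.9 TPM, against 9.21, 4.81 and 14.6 TPM in control mice. Cd79a was high that week too, at 291 to 516 TPM against 66.2 to 219 TPM in control mice. Vpreb3 was not set against Cd79a, so its higher level may follow B cell RNA as a whole. As background, immature B cells carry IgM before they carry IgD. Vpreb3 was named after its values were seen, and the part of immature B cells in the week 8 values was not tested. Set against week 6, 152 members rose at week 8, but 67.2% of all genes did too and their median rose by 0.95.

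**Figure D5:**
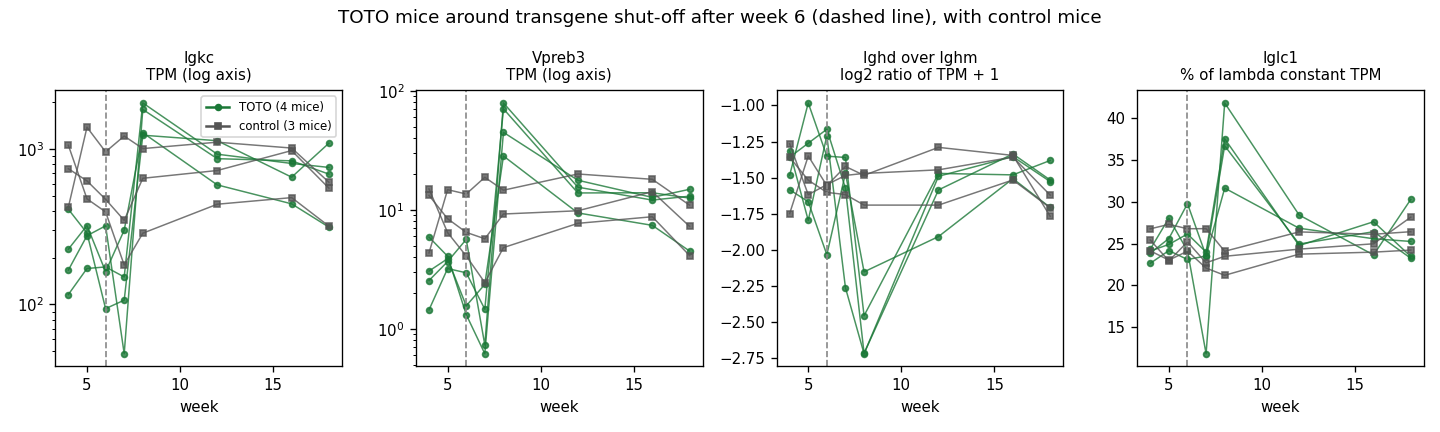
Igkc and Vpreb3 in TPM (log axes), the log2 ratio of Ighd to Ighm and the Iglc1 share of lambda constant TPM (%) from week 4 to week 18 in TOTO mice (green circles, 4 mice) and control mice (grey squares, 3 mice), a line per mouse. At week 8 the 4 TOTO mice stand outside the control range in all 4 panels. At weeks 12 to 18 the ranges overlap in the Igkc and Vpreb3 panels.

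The diversity of V gene usage within a chain varied little, in libraries with at least 100 TPM, beside these changes in level. Diversity does not show whether the shares of single V genes changed. The effective number of V genes, the number of equally used genes that would give the same Shannon diversity, had a median of 62.7 for heavy V genes (293 libraries with at least 20 TPM of heavy V) and 55 for kappa V genes (294 libraries). Among libraries with at least 100 TPM it ran from 55.8 to 66.5 for heavy and from 51.0 to 59.6 for kappa V genes. Cohort medians at 20 TPM were 62.6 in CML, 62.2 in TKI, 63.2 in TOTO and 63.1 in control mice for heavy V genes. Ighv1-26 was the largest heavy V gene in 281 of 293 libraries and Igkv1-117 the largest kappa V gene in 220 of 294, followed by Igkv10-96 in 29 and Igkv1-135 in 25.

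The lowest effective numbers were in libraries with little V RNA. TOTO mouse 545 at week 7 had 32.8 (heavy) and 30.1 (kappa) with 31.3 TPM of heavy V, and TKI mice 507 and 512 at week 16 had 40.4 and 48.4 (heavy) with 27.8 and 31.6 TPM. In TOTO mouse 545 the largest heavy V gene was then Ighv6-3 at 10.6%, and in TKI mouse 507 the largest kappa V gene was Igkv10-96 at 11.4%. The median heavy effective number over the 3 TKI mice at week 16 was 48.4, against 61.7 in control mice. Sequencing depth is not known from TPM, so the part of sampling in these values was not tested.

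In control mice alone, week 18 minus week 0 gave 0 members called by limma (0% of all genes), with 0 higher and 17 lower at an unadjusted p under 0.05, beside 0.019% and 3.81% of all genes. All 154 tested members had a negative change, with a median of -1.06 beside -0.67 for all genes, and on rescaled values the median was -0.32. Of the members, Igha had the largest change, -2.52 (limma adjusted p = 0.44), and it was lower in 3 of 3 mice.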

How the data were processed

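Values are TPM as deposited by the authors for 14605 genes in 298 libraries. The submitters' processing notes name STAR, Salmon and GRCm39, without versions. RNA came from whole blood with ribosomal RNA depletion and reverse-stranded libraries, per the labels' protocols. Each library column was assigned through its title, and 0 columns were left unassigned. TPM keeps no depth, so the depth per library is unknown and no counting error can be given. TPM sums ran from 989100 to 999879.

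Members were found by gene type in GENCODE M39, matched for 14537 genes, and positions and sequences were read from GRCm39. The members and gene lists were chosen with earlier results of these data known. All constant genes are named, with the 5 most abundant heavy and kappa V genes, the lambda V genes and up to 3 members with the largest called rise and fall per comparison, and the marker genes Cd79a, Ms4a1, Jchain, Xbp1 and Ngp. Vpreb3, Ighv6-3 and Igkv4-72 were named after their values were seen.

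Each mouse gave 1 change of log2(TPM + 1) between 2 weeks, which is the mouse as a block. That block comes from the labels, which give the mouse of each library; residuals of the same mouse at weeks 0 and 6 correlated at 0.189 on average (-0.453 to 0.566), against -0.00974 between mice. Changes of the 10519 genes with a mean of at least 1 TPM were fitted with limma 3.58.1 (lmFit, eBayes with trend, R 4.3.3), adjusted over all genes at 0.05. Ratios of 2 genes were tested by two-sided exact sign flips or permutations of mice, adjusted over 63 tests (7 ratios in 9 comparisons). Python 3.11.15, numpy 2.4.6, pandas 2.3.3, matplotlib 3.10.9 and Biopython 1.88 were used. Rescaled values divide each library by a median-ratio size factor from the 4339 genes above 0 in every library. Both procedures were tested on simulated data. The sources used here do not give whether week 6 blood preceded the first nilotinib dose or the return of tetracycline.

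Alternatives were a pseudocount of 0.1, no filter, rescaling, a batch term, no mouse block, other weeks and leaving out each mouse. Shared controls link the comparisons with control mice.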

Additional observations from a re-analysis of the deposited data

Results flagged for a closer look

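Each group of 4 to 10 mice was examined for a mouse far from the others, and chance alone marks about 1 in 20 groups; 2 of 64 groups were marked. Igha at the last week minus week 0 changed by -4.09 in CML mouse 487, while the other CML mice ran from -1.23 to 0.197, and that mouse had 112 TPM of Igha at week 0. Igha at week 10 minus week 6 changed by -1.26 in TKI mouse 513, while the other TKI mice ran from -0.395 to -0.0427. Ighg1 differed by -2.34 between TKI mice (mean change -1.83) and CML mice (0.51) over weeks 6 to 10, every mouse moving in its own cohort's direction (limma adjusted p = 0.084 in the test of the difference). In TOTO mice minus control mice, 99 members passed the test of the difference (7.23% of all genes did), and 8 did without control mouse 490 (2.34% of all genes).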

How the results depend on the processing

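Each count of members past the threshold is followed by the percentage of all genes called in the same setting. Induction had 147 (16%), and 2 with a batch term (0.599%), 1 with week 1 as the start (19.5%) and 39 with week 1 and rescaling (62%). Rescaling gave 50 (14.1%) for induction minus control, which had 0 before it, and 60 (4.02%) at the CML end without the TKI mice, which had 0 before it. For nilotinib, 6 (5.36%) became 61 rescaled (37.3%), 3 with no filter (3.46%), 0 with a batch term (4.26%), 3 at week 9 (2.85%), 45 at week 9 rescaled (34.8%), and 0 with the control change taken off, rescaled or not (0% both). Against CML mice, 0 (0.038%) became 66 rescaled (21.3%) and 46 at week 9 rescaled (10.6%). After nilotinib, 144 (32.9%) became 0 with the control change taken off (0.608%, and 0% rescaled). In TOTO mice, 151 (23.4%) became 1 with a batch term (1.01%). For TOTO minus control, 99 (7.23%) became 2 with no filter (0.698%), 0 with a batch term (1.16%), 0 at week 12 (0.00951%) and 150 at week 8 (23.7%).

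Without the mouse as a block (no pairing), nilotinib (0%) and TOTO minus control (0.0285%) each gave 0. The block changed no other count by more than 1.5 times: induction gave 151 (28.3%), after nilotinib 143 (30.1%) and TOTO 112 (7.42%).

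Leaving out each mouse in turn gave 86 to 151 members at induction (7.06% to 27.6% of all genes), with 86 without TOTO mouse 483 (7.06%) and 93 without CML mouse 480 (7.88%). It gave 0 to 35 for nilotinib (0% to 9.36%), with 35 without TKI mouse 511 (8.38%), 16 without control mouse 488 (9.36%), 13 without CML mouse 484 (8.42%), 2 without TKI mouse 513 (4.52%), and 0 without the mice named above. It gave 0 to 1 against CML (0% to 2.78%), 119 to 152 after nilotinib (23.9% to 43.4%), 126 to 151 in TOTO mice (13.1% to 40.9%) and 8 to 130 for TOTO minus control (2.34% to 14.1%). The induction ratios ran from 0.21 to 0.27 (Ighd to Ighm), 1.40 to 1.68 (Ighg2b to Ighm), 0.55 to 0.62 (Igkc to Iglc2), -0.11 to -0.086 (Igkc to Cd79a) and 0.74 to 1.07 (Jchain to Cd79a). The ratio of Jchain to Cd79a rose by 0.92 (exact sign-flip test, adjusted p = 0.049). Its batch means were 0.027 in 2021_E, 1.52 in 2022_A and 0.095 in 2022_B. Jchain to Cd79a missed the threshold with a pseudocount of 0.1 (1.03), with week 1 as the start (0.12) and without most single mice. Ighg2b to Ighm missed it with week 1 (0.63). Igkc to Cd79a missed it with a pseudocount of 0.1 (-0.094) and without any 1 of 13 of the 17 mice. Without any 1 of 6 mice Ighd to Ighm missed it too. With week 1 as the start of induction, 89 of 154 members had a positive change; of Ighm, Ighd, Ighg1, Igkc and Iglc2, the members followed singly through the settings, Ighd (0.31, and 0.054 rescaled) and Igkc (0.10) turned in sign. The causes were not tested. The settings with rescaling beside another change, week 8, the TKI mice left out and the control change taken off were chosen after seeing the data. With 3 control mice, differences from control have wide errors, and genes near 1 TPM have understated changes.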
